A study of Mus musculus with 6 samples.

Results

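The genes that encode the histones made for newly replicated DNA were examined in CD4+ T cells of the mouse spleen, cultured with MAPK13-inhibitors or with DMSO as control. Members were found by gene symbol, as every name that starts with H2ac, H2bc, H3c or H4c, or with the older prefixes Hist1h to Hist4h, or that is H1f1 to H1f5. Pseudogene names were left out, and a summed count of at least 20 over the 4 libraries of the count table was required. Of 63 symbols, 60 met this count, out of 35602 genes in the table: 5 linker histone H1 genes, 15 H2A genes, 16 H2B genes, 12 H3 genes and 12 H4 genes. *H2bc7* (summed count of 20) and *H2bc14* (23) were the members nearest the limit, and *H2ac21* (5), *H2bc1* (1) and *H2ac1* (0) fell below it.

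Each group had 3 libraries. The cells were stimulated through CD3 and CD28, and 72 h of stimulation is stated for the series. The inhibitor is named MAPK13-IN-1 in the labels of all 3 treated libraries. For replicates 2 and 3, which were wild type, the labels place the addition of 17.1 µM inhibitor, or of DMSO, after day 1, whereas the labels of replicate 1 give neither genotype nor dose. The study states the same dose for its RNA-seq without naming replicates. Replicates 2 and 3 were prepared with poly-T beads and are given as reads counted per gene, whereas the replicate 1 pair was prepared with a stranded mRNA kit and is given as normalized values, read here as FPKM (fragments scaled by transcript length and library size). The unit of that pair was inferred from the values, and its depth is unknown. Age and sex are not given, and whether replicates were separate animals or separate cultures is not stated, so p-values measure only the spread between these libraries, which may be technical.

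Histones H2A, H2B, H3 and H4 form the core around which DNA is wound, and H1 binds the linker between cores. Replication-dependent histone genes lie in clusters, lack introns for the most part, and are transcribed in S phase from a nuclear body organised by Npat. Their mRNAs typically end in a conserved stem-loop bound by Slbp, in place of a poly(A) tail, so that libraries made from polyadenylated RNA recover them only in part, mainly as transcripts that were polyadenylated.

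The depth was 26874805 and 28487403 counts in DMSO replicates 2 and 3, and 33854760 and 32617702 counts in MAPK13-inhibitors replicates 2 and 3. Members took few of these counts: the median over all members and libraries was 20 counts, with values from 0 to 1192. A count of 3, taken as the floor of detection, equals 0.116 and 0.110 CPM in the DMSO libraries and 0.0845 and 0.0885 CPM in the MAPK13-inhibitors libraries. CPM denotes counts scaled to a common library size with TMM factors (the trimmed mean of M-values), and the floor covers counting error only.

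The label of the cells was compared with marker genes. Of 7 CD4 T cell markers, 6 were found, and their summed level was 935 and 944 CPM in the DMSO libraries and 664 and 726 CPM in the MAPK13-inhibitors libraries. *Cd4* had their highest mean CPM, at 275 and 276 CPM with DMSO and 267 and 283 CPM with the inhibitor. In these libraries the 12 B cell markers summed to 1190 and 1167 CPM with DMSO and 1370 and 1393 CPM with the inhibitor, with the highest mean in *Pax5* (178 and 168 CPM, then 263 and 271 CPM). The CD4 T cell markers of the replicate 1 pair summed to 597 and 623 FPKM and its B cell markers to 56.2 and 39.3 FPKM, DMSO first. By the test described below for the members, 8 of the 12 B cell markers were higher and 3 lower with the inhibitor, and 1 of the 6 CD4 T cell markers was higher and 4 were lower. Over all genes tested, 31.5% were higher and 32.3% were lower. Erythroid and macrophage markers moved with the treatment. The 10 erythroid genes, of which 7 were higher and 1 lower among 9 tested, summed to 11.1 CPM in both DMSO libraries and to 93.8 and 69.0 CPM with the inhibitor, led by *Hbb-bs*, and to 1.01 and 2.07 FPKM in the replicate 1 pair. The 10 macrophage markers, of which 6 of 7 tested were higher, summed to 13.7 and 12.0 CPM with DMSO and to 43.1 and 35.6 CPM with the inhibitor, led by *Cd68*, and to 3.02 and 9.54 FPKM in the pair. *C1qa* and *C1qc* were at 0 in both DMSO libraries. The 2 CD8 T cell markers, both lower by the test, summed to 11.7 and 10.9 CPM with DMSO and to 5.49 and 7.85 CPM with the inhibitor, led by *Cd8b1*, and to 3.49 and 8.39 FPKM in the pair. The 8 neutrophil markers, of which 1 was tested and was higher, summed to between 0.776 and 1.24 CPM in the 4 libraries and to 0.706 and 0.456 FPKM in the pair. *Mpo* had their highest mean CPM over the 4 libraries, and *S100a9* was at 0 in all 4. Each of these marker counts stands beside the 31.5% higher and 32.3% lower over all genes tested. The part of these cells in the histone values was not tested.

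In replicates 2 and 3 the summed level of the 60 members was higher with MAPK13-inhibitors. It was 66.9 and 71.4 CPM in the DMSO libraries and 135 and 116 CPM in the MAPK13-inhibitors libraries, means of 69.1 ± 3.22 and 125 ± 13.4 (SD, n = 2 each), a ratio of 1.81. Both treated libraries lay above both DMSO libraries. *H2bc4* carried much of the difference: it made up 9.40% and 10.2% of the members' counts in the DMSO libraries and 24.9% and 24.6% in the treated ones. With *H2bc4* left out the ratio was 1.51, and with *H1f2* and *H4c9* left out too, the members with the next highest mean CPM, it was 1.48. In bulk RNA, a change in the number of cells that contain a transcript and a change in its level per cell cannot be told apart.

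Gene by gene, 55 of the 60 members passed the filter on low counts and entered the quasi-likelihood test of edgeR, whose p-values were adjusted by Benjamini-Hochberg over all 16269 genes tested. At an adjusted p under 0.05, 17 members were higher with the inhibitor and 2 were lower, 36 passed in neither direction, and 5 were not tested (*H2ac12*, *H2ac20*, *H2bc7*, *H2bc14* and *H4c6*). Among all genes tested, 31.5% were higher and 32.3% were lower. The share of members that were higher, 28.3% of the 60, was thus near the background. The share that were lower, 3.33%, was below it. Both shares include the 5 untested members, whereas the background covers tested genes only. The median log2 fold change of the tested members was 0.54, beside 0.01 over all genes tested. With DESeq2 in place of edgeR, 9 of the 17 members were higher, and the same 2 members were lower. The 8 that lost their call there, at adjusted p-values of 0.0842 to 0.261, were *H1f3*, *H2ac18*, *H3c6*, *H4c3*, *H4c8*, *H4c11*, *H4c12* and *H4c14*. The families differed in their sums: H2B had a ratio of 3.02 between the group means, H1 1.79, H4 1.72, H2A 1.11 and H3 0.948. Much of the H2B difference came from *H2bc4*, at 6.78 CPM with DMSO and 31.0 CPM with the inhibitor in the group means. The H3 value crossed to 1.03 when libraries were scaled by their totals alone.

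**Figure D1:**
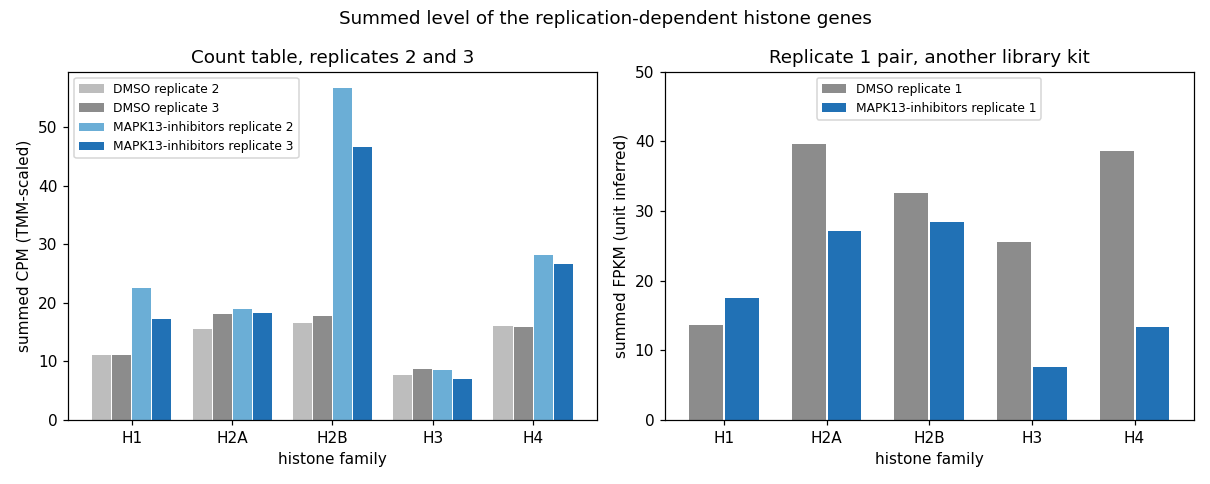
Summed level of each histone family. Left, TMM-scaled CPM in the 4 libraries of the count table, where the H2B bars stand at 16.5 and 17.7 with DMSO and at 56.6 and 46.6 with MAPK13-inhibitors; right, summed FPKM in the replicate 1 pair, where the H4 bars stand at 38.7 with DMSO and 13.4 with the inhibitor. Each bar is 1 library.

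Linker histones compact the fibre between nucleosome cores. The 5 H1 genes summed to 11.1 CPM in both DMSO libraries and to 22.5 and 17.2 CPM in the MAPK13-inhibitors libraries. *H1f2*, with the most counts, had 211 and 247 counts with DMSO and 590 and 437 with the inhibitor, or 8.63 ± 0.636 against 14.8 ± 2.64 CPM. The groups did not overlap, and the gene rose with a log2 fold change of 0.77 ± 0.15 (SE; adjusted p = 0.000962, edgeR). *H1f1*, absent from DMSO replicate 3, had 7 and 0 counts with DMSO and 60 and 31 with the inhibitor, and its log2 fold change of 3.26 ± 0.73 (adjusted p = 0.00277, edgeR) rested on few reads. With DMSO replicate 3 left out it was 2.24. Leaving out DMSO replicate 2 gave 8.39, a fitted value against a control at 0 counts, which depends on the prior count. *H1f3* had 27 and 23 counts with DMSO and 62 and 58 with the inhibitor, again without overlap (log2 fold change 0.87 ± 0.29, adjusted p = 0.0229, edgeR). Its call was lost without DMSO replicate 3, at an adjusted p of 0.160 in edgeR. *H1f4* (37 and 20 counts, then 66 and 45) and *H1f5* (4 and 11, then 20 and 13) overlapped between groups in CPM and were not called, with adjusted p-values of 0.193 and 0.264 in edgeR. *H1f4* passed only when DMSO replicate 2 was left out, with a log2 fold change of 1.10 and an adjusted p of 0.0377. Its log2 fold change, 0.56 over all 4 libraries, was 0.14 without DMSO replicate 3 and 0.30 without MAPK13-inhibitors replicate 2. That of *H1f5*, 0.74, lay between 0.22 and 1.58 when 1 library was left out, the ends being set by DMSO replicates 2 and 3. At an unadjusted p under 0.05 in edgeR, and with DESeq2, 0 H1 genes were lower. Over all genes tested, 31.5% were higher and 32.3% lower at an adjusted p under 0.05 in edgeR.

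H2A, which pairs with H2B in the nucleosome core, summed to 15.6 and 18.0 CPM with DMSO and to 19.0 and 18.2 CPM with the inhibitor. Of its 15 genes 1 was higher and 1 lower (31.5% and 32.3% over all genes tested), 11 were neither and 2 were not tested, with a median log2 fold change of 0.08 over the 13. The most counts came from *H2ac18* and *H2ac19* in the cluster on chromosome 3. *H2ac18* had 102 and 130 counts with DMSO and 222 and 195 with the inhibitor (4.37 ± 0.583 against 6.01 ± 0.354 CPM), with no overlap and a log2 fold change of 0.46 ± 0.17 (adjusted p = 0.0369, edgeR). That call was lost without DMSO replicate 2 (adjusted p = 0.281) and without MAPK13-inhibitors replicate 2 (adjusted p = 0.0723). *H2ac19* had 99 and 133 counts, then 206 and 182, and did not pass (log2 fold change 0.35 ± 0.18, adjusted p = 0.106, edgeR), except when libraries were scaled by their totals alone (adjusted p = 0.0347). Its log2 fold change was 0.18 with DMSO replicate 2 left out and 0.53 with DMSO replicate 3 left out. The annotated coding sequences of these genes are identical, so reads could be shared between them, and their separate values are uncertain. Summed, they gave 201 and 263 counts with DMSO and 428 and 377 with the inhibitor.

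*H2ac11* moved the other way. Its counts were 32 and 47 with DMSO and 13 and 7 with the inhibitor, or 1.48 ± 0.345 against 0.286 ± 0.113 CPM. The groups did not overlap, and the fall had a log2 fold change of −2.35 ± 0.42 (adjusted p = 0.000673, edgeR). Its coding sequence is 99.5% identical to that of *H2ac7*, a gene with 7 and 14 counts with DMSO and 15 and 15 with the inhibitor, whose groups overlapped (log2 fold change 0.13 ± 0.49). That value turned to −0.26 with DMSO replicate 2 left out and was 0.66 with DMSO replicate 3 left out.

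H2B was the family with the widest difference in sum, at 16.5 and 17.7 CPM with DMSO and 56.6 and 46.6 CPM with MAPK13-inhibitors. All 14 tested genes of its 16 had a log2 fold change above 0 with TMM factors, from 0.27 to 2.63, and 4 passed the test (31.5% of all genes tested did so on the higher side), *H2bc4*, *H2bc6*, *H2bc8* and *H2bc18*. *H2bc4* had 162 and 198 counts with DMSO and 1192 and 965 with the inhibitor, or 6.78 ± 0.706 against 31.0 ± 3.61 CPM. Both treated libraries were far above both controls, and the log2 fold change was 2.19 ± 0.13 (adjusted p = 3.14e-07, edgeR). The means of the family sum were 17.1 CPM with DMSO and 51.6 CPM with the inhibitor, so *H2bc4* held much of the difference between them. *H2bc8* rose from 26 and 38 counts to 212 and 184 (1.20 ± 0.275 against 5.70 ± 0.384 CPM), without overlap, by a log2 fold change of 2.24 ± 0.23 (adjusted p = 1.25e-05, edgeR). *H2bc18*, on chromosome 3, was low throughout and had 2 and 5 counts with DMSO and 29 in each treated library (log2 fold change 2.63 ± 0.53, adjusted p = 0.00146, edgeR). *H2bc6* had 10 and 13 counts, then 63 and 42 (log2 fold change 1.79 ± 0.38, adjusted p = 0.00188, edgeR), but its RefSeq gene model spans 37455 bases and overlaps another gene, so reads assigned to it are uncertain.

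*H2bc21*, the H2B gene with the next highest mean CPM, did not pass. Its counts were 95 and 91 with DMSO and 201 and 121 with the inhibitor, and the groups overlapped in CPM (3.68 and 3.35, then 5.66 and 3.57). The log2 fold change was 0.40 ± 0.23 (adjusted p = 0.163, edgeR), and the treated libraries moved it apart: it was 0.02 without MAPK13-inhibitors replicate 2, and 0.68 with an adjusted p of 0.00195 without MAPK13-inhibitors replicate 3. *H2bc15* and *H2bc9* lay just outside the threshold, with log2 fold changes of 1.10 and 1.25 and adjusted p-values of 0.0534 and 0.0546 in edgeR. Both passed with upper-quartile factors (adjusted p-values of 0.0400 and 0.0426) and with library totals alone (0.0345 and 0.0375). At an unadjusted p under 0.05 in edgeR, and with DESeq2, 0 H2B genes were lower, where 32.3% of all genes tested were lower at an adjusted p under 0.05. The coding sequence of *H2bc4* is 99.5% identical to that of *H2bc23*, whose counts were 22 and 25 with DMSO and 54 and 36 with the inhibitor.

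H3, which carries the lysines of most studied histone marks, summed to 7.68 and 8.71 CPM with DMSO and to 8.48 and 7.05 CPM with the inhibitor. These sums overlapped. Of 12 genes, all tested, 1 was higher and 1 lower, beside 31.5% and 32.3% over all genes tested, and 10 were neither. *H3c3* had 38 and 57 counts with DMSO and 19 and 26 with the inhibitor, 1.78 ± 0.440 against 0.651 ± 0.164 CPM. It fell without overlap, with a log2 fold change of −1.46 ± 0.34 (adjusted p = 0.00372, edgeR). *H3c6* had 22 and 23 counts with DMSO and 62 and 47 with the inhibitor, without overlap (log2 fold change 0.88 ± 0.31, adjusted p = 0.0279, edgeR). Its call was lost when DMSO replicate 2, DMSO replicate 3 or MAPK13-inhibitors replicate 2 was left out, with adjusted p-values of 0.0958, 0.106 and 0.146. *H3c1* stood just outside the threshold, with 40 and 34 counts, then 31 and 27 (log2 fold change −0.74 ± 0.32, adjusted p = 0.0614, edgeR), and passed under a filter of 10 counts or more in each library (adjusted p = 0.0484).

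H4, the partner of H3 in the core, had the most genes called in edgeR. Its sum was 16.0 and 15.9 CPM with DMSO and 28.1 and 26.6 CPM with MAPK13-inhibitors, and 8 of 12 genes were higher, 0 lower, 3 neither and 1 not tested, where 31.5% of all genes tested were higher and 32.3% lower. With DESeq2, *H4c3*, *H4c8*, *H4c11*, *H4c12* and *H4c14* lost their call while no H2B gene did, so that H2B had the most genes called there. At an unadjusted p under 0.05 in edgeR, and with DESeq2, 0 H4 genes were lower too. *H4c9* had the highest mean CPM, with 235 and 238 counts with DMSO and 477 and 446 with the inhibitor, 8.93 ± 0.256 against 13.3 ± 0.196 CPM. Replicates lay close together, and the gene rose by a log2 fold change of 0.57 ± 0.12 (adjusted p = 0.00159, edgeR). *H4c17* had 18 and 17 counts with DMSO and 104 and 86 with the inhibitor, 0.662 ± 0.0516 against 2.73 ± 0.277 CPM. Its groups lay far apart, with a log2 fold change of 2.04 ± 0.28 (adjusted p = 0.000118, edgeR). *H4c14* had 6 and 3 counts, then 30 and 18 (log2 fold change 1.99 ± 0.56, adjusted p = 0.00960, edgeR), and lost its call without DMSO replicate 3 (adjusted p = 0.0778) or without MAPK13-inhibitors replicate 2 (adjusted p = 0.112). The other genes called, *H4c3*, *H4c8*, *H4c11*, *H4c12* and *H4c18*, had log2 fold changes of 0.86, 1.14, 1.91, 1.11 and 1.58 in that order. *H4c3* lost its call without either DMSO library and without MAPK13-inhibitors replicate 2 (adjusted p-values of 0.0961, 0.162 and 0.145, edgeR), and *H4c8* without DMSO replicate 3 (adjusted p = 0.0673).

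The 3 tested H4 genes that did not pass were *H4c1*, *H4c2* and *H4c4*. *H4c1* had 13 and 12 counts with DMSO and 30 and 8 with the inhibitor, so that the treated libraries lay on either side of the controls, and its log2 fold change of 0.20 became −0.99 without MAPK13-inhibitors replicate 2. *H4c2* had 34 and 39 counts, then 40 and 40 (log2 fold change −0.25 ± 0.29, adjusted p = 0.458, edgeR), and *H4c4* had 21 and 30, then 44 and 50 (log2 fold change 0.50 ± 0.32, adjusted p = 0.194, edgeR). The value of *H4c4* was 0.28 with DMSO replicate 2 left out and 0.72 with DMSO replicate 3 left out.

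**Figure D2:**
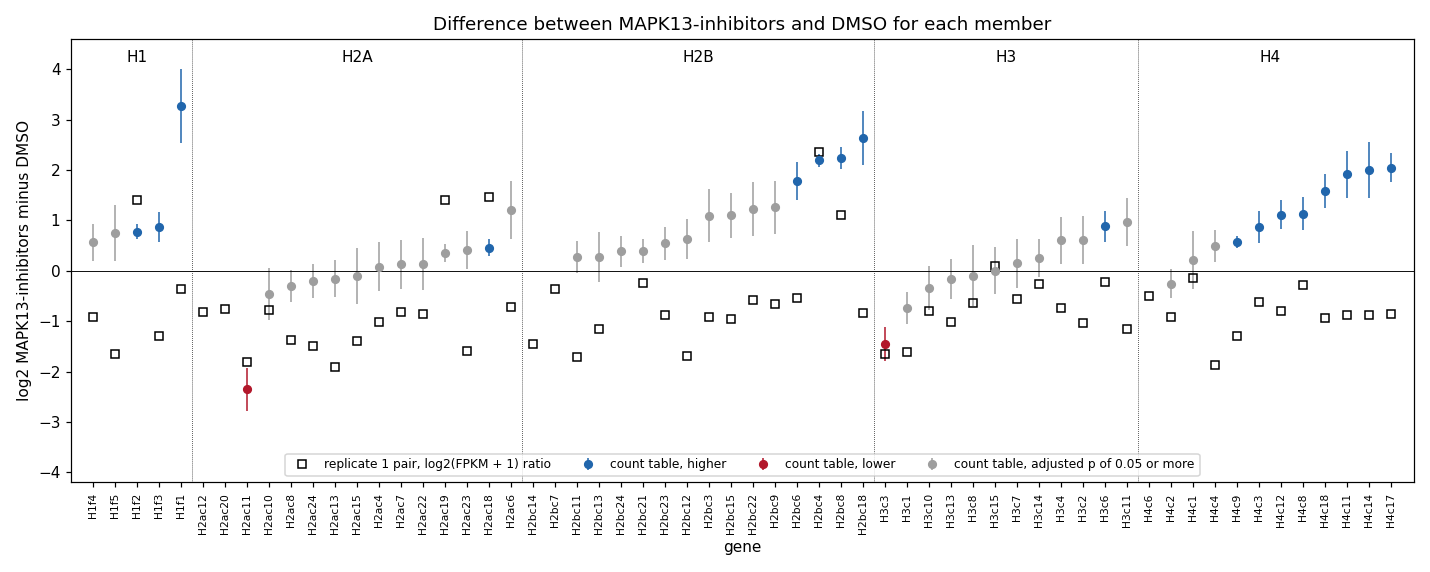
Difference between MAPK13-inhibitors and DMSO for each member, on a log2 scale. Circles are fold changes of the count table with their SE, filled blue where higher, red where lower and grey at an adjusted p of 0.05 or more. Open squares are the log2 ratios of FPKM + 1 in the replicate 1 pair, where *H2bc4*, at 2.35, is the highest. Members without a circle were not tested, and *H2bc24* has no square.

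The replicate 1 pair, which has 1 library per group and therefore no replicate check and no p-value, went the other way for most members. Of the 60 members, 59 were listed in it. Their summed level was 150 FPKM in the DMSO library and 93.9 FPKM in the treated one, a ratio of 0.625, where the count table had given 1.81. The summed ratio was 0.528 without *H2bc4*. The median log2 ratio of the 59, computed on FPKM plus a pseudocount of 1, was −0.86, a scale that understates the change of low genes, and 53 of them lay below 0. At least 1 FPKM in either library was reached by 51 members. Of these, 43 had a log2 ratio of −0.5 or less, or 84.3%, where the background over 11510 genes at that level was 9.93%, and 5 had a ratio of 0.5 or more, or 9.80%, where the background was 20.9%. These shares rest on the filter, since 38 of the 51 reached 1 FPKM in the DMSO library alone, where they were higher, and 0 in the treated library alone. Of the 13 members with at least 1 FPKM in both libraries, 6 had a log2 ratio of −0.5 or less and 5 one of 0.5 or more, with a median of −0.28. The background over 10448 such genes was 9.92% and 17.3% in that order. The library kit, the authors' processing and the unit of the values differ together between this pair and replicates 2 and 3. Marker levels differ as well. With the inhibitor the CD4 and the CD8 T cell markers summed higher in the pair and lower in the count table. The B cell markers summed lower in the pair and higher in the count table. The labels of the pair give no dose or genotype. The parts of these differences in the opposite direction cannot be told apart.

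The 5 members with a log2 ratio of 0.5 or more in the pair were *H2bc4*, *H2ac18*, *H1f2*, *H2ac19* and *H2bc8*. *H2bc4* stood at 2.30 FPKM in the control and 15.9 FPKM in the treated library (log2 ratio 2.35). *H1f2* stood at 5.37 and 15.8 FPKM (1.40), and *H2bc8* at 1.91 and 5.24 FPKM (1.10). *H2ac18* and *H2ac19* stood at 3.36 and 3.16 FPKM in the control and at 11.1 and 10.0 FPKM in the treated library (1.47 and 1.40). The other member above 0 was *H3c15*, at 0.702 and 0.824 FPKM (0.10). The first 5 genes had a log2 fold change above 0 in the count table too, and 4 of them were among the 17 called higher there, *H2ac19* being the exception.

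Of the other 13 members called higher in the count table, all lay below 0 in the pair, 10 of them at −0.5 or less. Beside this stands the share of 9.93% over all genes with at least 1 FPKM in either library. Among the 13, only *H4c9*, *H4c8* and *H2bc6* had at least 1 FPKM in both libraries, so most of this count rests on members that were low in the treated library. *H4c9*, the most abundant member per length in the DMSO library of the pair, stood at 15.8 FPKM there and at 5.87 FPKM in the treated library (log2 ratio −1.29). *H4c17* stood at 2.60 and 0.976 FPKM (−0.86), *H2bc18* at 1.27 and 0.274 FPKM (−0.83), and *H1f3* at 2.86 and 0.581 FPKM (−1.29). The genes that fell in the count table were also lower in the pair: *H2ac11* stood at 5.61 and 0.890 FPKM (−1.81), and *H3c3* at 6.72 and 1.46 FPKM (−1.65).

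Levels between genes can be set side by side only per length, which the pair allows. With DMSO the order was *H4c9* (15.8 FPKM), *H2bc11* (8.07), *H3c3* (6.72), *H4c4* (6.46) and *H2ac11* (5.61). With the inhibitor it was *H2bc4* (15.9 FPKM), *H1f2* (15.8), *H2ac18* (11.1), *H2ac19* (10.0) and *H4c9* (5.87), so that *H4c9* alone was among the first 5 in both. With 1 library each, neighbours in these orders cannot be separated from library noise. By family, the sums went from 13.7 to 17.5 FPKM for H1, from 39.7 to 27.1 for H2A and from 32.6 to 28.4 for H2B. They went from 25.5 to 7.57 for H3 and from 38.7 to 13.4 for H4. Of the members listed in the pair, 4 of 5 H1 genes and 13 of 15 H2B genes had a log2 ratio below 0. *H1f2* (5.37, then 15.8 FPKM) and *H2bc4* (2.30, then 15.9 FPKM) held most of the H1 and H2B sums in the treated library.

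Of the 60 members, 59 were placed on the genome build GRCm38 through the RefSeq gene table, 50 of them on chromosome 13 and 9 on chromosome 3. The chromosome 13 genes lie in 2 blocks, chr13:21715711-22043658 with 22 members and chr13:23531044-23764412 with 28, and the chromosome 3 genes lie in chr3:96220413-96270192. By the counts, 5 members of the first block, 9 of the second and 3 on chromosome 3 were higher, with 1 lower in each block on chromosome 13. The share over all genes tested was 31.5% higher and 32.3% lower, and with so few members the counts by place are a description. In the pair of replicate 1 all 22 members of the first block had a log2 ratio of −0.5 or less (median −1.16), whereas on chromosome 3 the median ratio was −0.27 and 4 of 9 members were that low. Beside these counts stands the share of 9.93% over all genes with at least 1 FPKM in either library, a level that most members reached in the DMSO library alone. An example, picked after its values were seen, is that *H2ac11*, which fell in the count table, and *H4c9*, which rose there, lie near each other in the first block, at chr13:22042478-22042949 and chr13:22040960-22041362, both on the minus strand. In the pair both were lower, and no tally of neighbours was made.

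**Figure D3:**
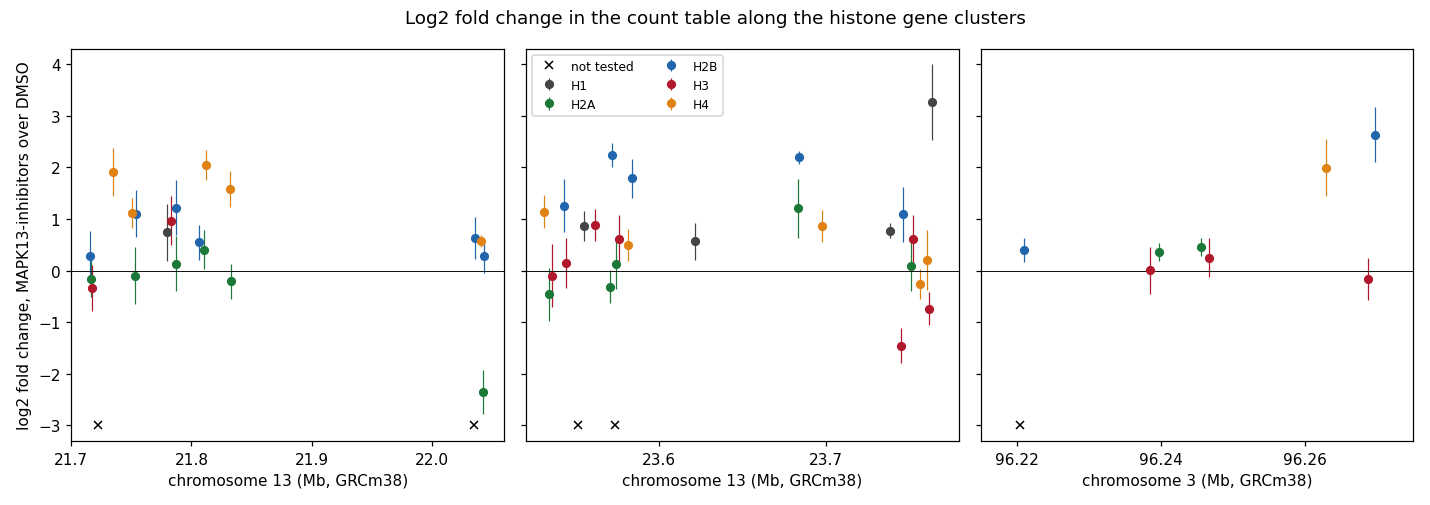
Log2 fold change of each tested member in the count table (vertical axis, with SE) along the histone gene clusters of chromosome 13 and chromosome 3 (horizontal axis, Mb on GRCm38), coloured by family. Crosses at the foot mark members that were not tested; *H2ac11*, at −2.35, is the lowest circle and *H1f1*, at 3.26, the highest.

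Many H2A and H2B genes stand head to head and share the DNA between their starts. By the GENCODE annotation of the same build, 10 such pairs of members had at most 500 bases between them. In each of the 7 pairs with both genes tested, the log2 fold change of the H2B gene was above that of its H2A partner. No test was run for this comparison, and in 4 of the 7 pairs neither gene was called in edgeR. Some differences lay within the SEs, as for *H2ac23* (0.41 ± 0.38) beside *H2bc23* (0.54 ± 0.33). *H2ac8* and *H2bc8*, 175 bases apart, had log2 fold changes of −0.31 ± 0.32 and 2.24 ± 0.23. That of *H2ac8* was −0.10 without MAPK13-inhibitors replicate 2 and −0.55 without MAPK13-inhibitors replicate 3. *H2ac8* had 40 and 32 counts with DMSO and 33 and 43 with the inhibitor, so its groups overlapped while those of *H2bc8* did not. The pair of *H2ac11* and *H2bc11*, 269 bases apart, had −2.35 ± 0.42 and 0.27 ± 0.32. The *H2bc11* value was 0.38 without MAPK13-inhibitors replicate 2 and 0.16 without MAPK13-inhibitors replicate 3. *H2ac6* and *H2bc4*, 250 bases apart, had 1.20 ± 0.57 and 2.19 ± 0.13. *H2ac6* had 13 and 4 counts with DMSO and 34 and 18 with the inhibitor. It did not pass (adjusted p = 0.0856, edgeR), but did in the fit with a replicate block (adjusted p = 0.0433, edgeR). Dropping DMSO replicate 2 raised the *H2ac6* log2 fold change to 2.30, whereas dropping DMSO replicate 3 lowered it to 0.56. Among the treated libraries, dropping replicate 2 gave 0.71 and dropping replicate 3 gave 1.55. In the replicate 1 pair the H2B gene had the higher log2 ratio in the same 7 gene pairs, and in 9 of all 10. The direction differed within a pair for *H2ac8* (3.32 and 0.675 FPKM, DMSO first) beside *H2bc8* (1.91 and 5.24 FPKM), and for *H2ac6* (1.34 and 0.425 FPKM) beside *H2bc4* (2.30 and 15.9 FPKM), but not for *H2ac11* and *H2bc11*, whose log2 ratios were −1.81 and −1.71.

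Histone genes of a family are close copies. Of 58 members matched to a GENCODE coding sequence, 46 had at least 95% identity to another member of the same length, and 8 were identical to one, in the pairs *H2ac18* and *H2ac19*, *H2ac23* and *H2ac24*, *H3c14* and *H3c15*, and *H4c17* and *H4c18*. How reads that fit several copies were counted is not given in the sources used here, so values of single genes are uncertain. The last pair summed to 29 and 36 counts with DMSO and 167 and 141 with the inhibitor. The summed counts of *H2ac23* and *H2ac24* were 43 and 44, then 53 and 66, and those of *H3c14* and *H3c15* were 25 and 42, then 55 and 42.

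The 3′ ends of the annotated transcripts were searched for the histone stem-loop, as a stem of 6 bases that starts with GG, a loop of 4 bases that starts with TT, and the reverse complement of the stem. This form was found after the stop codon in all but 6 of the 45 members with an annotated 3′ UTR of at least 40 bases, that is in 39, starting 21 to 58 bases after the stop codon. Anywhere in the transcript, it occurred in 0.354% of all 58797 protein-coding transcripts. The remaining 13 matched members are annotated with a shorter UTR or none. The stem-loops of members that rose and of members that fell are shown with their flanks, capitals marking the stem and loop, read from GENCODE transcripts.
*H1f2*, chr13:23739507-23739532, + strand: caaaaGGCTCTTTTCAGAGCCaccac
*H2bc8*, chr13:23571838-23571863, + strand: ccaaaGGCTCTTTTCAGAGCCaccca
*H2ac11*, chr13:22042478-22042503, − strand: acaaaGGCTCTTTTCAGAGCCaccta
*H3c3*, chr13:23745042-23745067, − strand: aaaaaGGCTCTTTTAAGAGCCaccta
*H4c9*, chr13:22040961-22040986, − strand: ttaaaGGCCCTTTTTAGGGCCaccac
*H4c17*, chr13:21812124-21812147, + strand: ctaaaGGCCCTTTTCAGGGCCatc
The 16 bases of *H1f2*, which rose, and of *H2ac11*, which fell, are the same, and 23 members in all carry that form. The form of *H4c17* was found in 6 members, that of *H3c3* in 5 and that of *H4c9* in 2.

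In 17 members an annotated transcript goes on for more than 100 bases past the stem-loop, among them *H1f2* (840 bases), *H4c9* (330) and *H2bc8* (155), while that of *H2ac11* ends 23 bases after it and that of *H3c3* 74 bases after it. For *H2bc4* no stem-loop was found in the annotated UTR of 742 bases, and its model has up to 2 exons. Grouped by annotation, a division made after the values were seen, 9 of 19 members with a 3′ UTR of at least 200 bases were higher and 0 lower in the count table. Of 26 members with 40 bases or more but under 200, 5 were higher and 2 lower. Of 13 with less, 2 were higher and 0 lower. *H2bc8* (200 bases, higher) and *H2ac8* (199 bases, not called) stood on either side of the limit of 200 bases. Over all genes tested the shares were 31.5% higher and 32.3% lower. No member of the first or the third class was lower at an unadjusted p under 0.05 in edgeR, or with DESeq2 (0 in each). Summed, the first class went from 37.0 and 38.0 to 90.9 and 76.1 CPM, the second from 22.9 and 25.4 to 32.0 and 29.2 CPM, and the third from 5.39 and 6.25 to 8.20 and 7.88 CPM. By the FPKM of replicate 1 the first class stood at 51.3 with DMSO and 51.4 with the inhibitor, the second at 70.0 and 36.3 FPKM, and the third at 26.8 and 5.08 FPKM. The even sum of the first class held lower and higher members: 12 of its 19 members had a log2 ratio of −0.5 or less and 3 one of 0.5 or more, *H2bc4* and *H1f2* among them, with a median of −0.65. No test was run between these classes.

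Promoters, taken as 250 bases before to 50 after the start in RefSeq on GRCm38.p6, were given for 54 members and were searched on both strands for 5 short motifs, none of which contains another. TATAAA was present in 57.4% of them and in 14.2% of the 27025 promoters in the table, and CCAAT in 85.2% against 37.9%. CCAAT was in 100% of the H1, H2A, H2B and H3 promoters but in 3 of 11 H4 promoters (27.3%). The octamer ATTTGCAT, bound by Oct1, was found in 5 of 15 H2A and 5 of 13 H2B promoters and in 0 of the H1, H3 and H4 promoters, beside 1.75% of all promoters. AAACACA, the H1 box, was found in 4 of 5 H1 promoters (7.14% of all promoters), and GGTCCG, the core of site II of H4 genes, in 10 of 11 H4 promoters (8.39% of all). The 120 bases before the start, from RefSeq on GRCm38.p6, are shown for members that rose, that fell or that stand beside one that rose, with matches to these motifs in capitals.
*H1f2*, chr13:23738687-23738806, + strand: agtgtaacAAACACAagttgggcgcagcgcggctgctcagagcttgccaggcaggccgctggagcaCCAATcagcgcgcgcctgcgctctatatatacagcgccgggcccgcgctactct
*H2bc8*, chr13:23571280-23571399, + strand: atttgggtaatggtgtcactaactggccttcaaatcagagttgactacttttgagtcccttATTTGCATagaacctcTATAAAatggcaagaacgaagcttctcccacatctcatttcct
*H2ac8*, chr13:23571221-23571340, − strand: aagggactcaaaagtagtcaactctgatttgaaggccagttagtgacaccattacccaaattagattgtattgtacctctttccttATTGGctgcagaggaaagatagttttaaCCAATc
*H2ac11*, chr13:22042950-22043069, − strand: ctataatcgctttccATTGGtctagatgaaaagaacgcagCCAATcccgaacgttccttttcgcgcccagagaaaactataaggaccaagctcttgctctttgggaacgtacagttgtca
*H4c9*, chr13:22041363-22041482, − strand: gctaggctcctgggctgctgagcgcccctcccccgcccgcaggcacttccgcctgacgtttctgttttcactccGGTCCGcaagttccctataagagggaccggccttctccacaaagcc
*H4c17*, chr13:21811626-21811745, + strand: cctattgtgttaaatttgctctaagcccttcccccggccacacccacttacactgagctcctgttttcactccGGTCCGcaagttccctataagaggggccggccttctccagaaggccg
The stretches of *H2ac8* and *H2bc8* overlap, being opposite strands of the DNA between these genes, and ATTGG is CCAAT on the other strand. A match is a run of letters, and binding was not measured.

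Genes that make and process histone transcripts were called in both directions, as were genes in general. Of 28, all tested, 8 were higher and 13 were lower, with a median log2 fold change of −0.15, beside 31.5% higher and 32.3% lower over all genes tested. *Slbp*, which encodes the stem-loop binding protein, had 90.4 and 86.3 CPM with DMSO and 71.6 and 79.6 CPM with the inhibitor (log2 fold change −0.23 ± 0.07, adjusted p = 0.0183, edgeR). That call was lost with upper-quartile factors (adjusted p = 0.0944), with library totals alone (adjusted p = 0.237) and without DMSO replicate 2 (adjusted p = 0.127). *Ncbp1*, the large subunit of the cap-binding complex, fell from 98.6 and 97.0 CPM to 52.2 and 55.2 CPM (log2 fold change −0.87 ± 0.07, adjusted p = 1.74e-06, edgeR). *Snrpb*, an Sm core protein, and *Cpsf2*, a subunit of the cleavage complex, fell with log2 fold changes of −0.69 ± 0.07 and −0.47 ± 0.06 (adjusted p-values of 1.01e-05 and 0.000104, edgeR). *Eri1*, the exonuclease that trims histone mRNA ends, fell by 0.35 on the log2 scale, and *Npat*, the organiser of the histone locus body, had a log2 fold change of −0.32 ± 0.10 (adjusted p = 0.0153, edgeR), a call lost with library totals alone (adjusted p = 0.101). The *Npat* value was −0.19 without MAPK13-inhibitors replicate 2.

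Other components were nearer the threshold or on the higher side. *Casp8ap2*, a protein of the histone locus body, rose from 45.1 and 41.2 CPM to 57.1 and 60.0 CPM (log2 fold change 0.44 ± 0.08, adjusted p = 0.000574, edgeR). *Lsm11*, part of the U7 particle that directs cleavage, had a log2 fold change of 0.34 ± 0.10 (adjusted p = 0.0151, edgeR), lost with DESeq2 (adjusted p = 0.0625) and without DMSO replicate 3 (adjusted p = 0.182). *Zfp473*, a zinc finger protein of the same process, had one of −0.57 ± 0.19 (adjusted p = 0.0203, edgeR). Its call was lost with library totals alone (adjusted p = 0.0531), with DESeq2 (adjusted p = 0.129), without DMSO replicate 2 (adjusted p = 0.0796) and without MAPK13-inhibitors replicate 2 (adjusted p = 0.0742). The number higher, 8, was 4 with DESeq2 and without either DMSO library, and 5 without a filter on low counts. The number lower, 13, was 6 with library totals alone and 8 without DMSO replicate 2. In the pair, 3 of the 28 had a log2 ratio of −0.5 or less, near the 9.93% of genes with at least 1 FPKM in either library, and 0 had one of 0.5 or more.

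Genes listed as replication-independent histones, whose mRNAs typically carry poly(A) tails and which can supply histones outside S phase, were mostly lower in both preparations. Of 11, all tested, 10 were lower and 0 higher in the count table, beside 32.3% and 31.5% of all genes tested, with a median log2 fold change of −1.16, and the list summed to 2127 and 2120 CPM with DMSO and 1089 and 1130 CPM with the inhibitor. At an unadjusted p under 0.05 in edgeR, and with DESeq2, 0 were higher as well. *H3f3b*, which encodes the variant H3.3, had the highest mean CPM, at 812 and 817 CPM, then 249 and 256 CPM (log2 fold change −1.69 ± 0.05, adjusted p = 7.76e-09, edgeR). *H1f0*, a linker histone of non-dividing cells, fell from 69.1 and 75.7 CPM to 11.3 and 10.1 CPM (log2 fold change −2.76 ± 0.10, adjusted p = 1.62e-08, edgeR). *H2ax*, the variant phosphorylated at DNA breaks, fell from 80.8 and 83.2 CPM to 13.2 and 19.4 CPM (log2 fold change −2.33 ± 0.14, adjusted p = 3.29e-07, edgeR).

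Smaller falls were those of *H2az1*, a variant found at promoters, with a log2 fold change of −0.67 ± 0.06, and of *Cenpa*, the centromeric H3, with −0.54 ± 0.16. For *Cenpa* it was −0.25 without MAPK13-inhibitors replicate 2 and −0.90 without MAPK13-inhibitors replicate 3. *H3f3a*, the other H3.3 gene, had 256 and 243 CPM, then 232 and 224 CPM. It did not pass (log2 fold change −0.13 ± 0.06, adjusted p = 0.0606, edgeR), though it did with a replicate block (adjusted p = 0.0479, edgeR). Its log2 fold change was −0.16 without MAPK13-inhibitors replicate 2 and −0.11 without MAPK13-inhibitors replicate 3. It was −0.050 with upper-quartile factors and −0.0057 with library totals alone. By the replicate 1 values the list summed to 1383 FPKM with DMSO and 983 FPKM in the treated library, and 6 of 11 genes had a log2 ratio of −0.5 or less, beside the 9.93% given above. *H2ax* stood at 63.7 and 20.8 FPKM, *H1f0* at 44.1 and 29.0 FPKM, and *H3f3b* at 311 and 219 FPKM. The summed FPKM of these 11 genes was thus larger than that of the 59 members in both libraries.

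Histone chaperones and importers carry new histones to the nucleus and load them on DNA. Of 26, all tested, 4 were higher and 12 lower, beside 31.5% and 32.3% of all genes tested, and their median log2 fold change was −0.14. *Asf1b* and *Chaf1a*, which hand over and deposit H3 and H4 at replication forks, fell from 45.9 and 45.6 CPM to 18.9 and 25.4 CPM and from 99.1 and 97.9 CPM to 39.6 and 57.0 CPM, with log2 fold changes of −1.05 ± 0.12 and −1.03 ± 0.13. Both passed in edgeR. *Nasp*, which holds the soluble H3 and H4 pool, had a log2 fold change of −0.56 ± 0.09 (adjusted p = 0.000227, edgeR). *Anp32e*, a chaperone of H2A.Z, and *Ipo4*, an importer of H3 and H4, fell with log2 fold changes of −1.08 ± 0.06 and −1.07 ± 0.08. *Atrx*, a remodeller that works with H3.3, rose from 157 and 154 CPM to 275 and 255 CPM (log2 fold change 0.76 ± 0.06, adjusted p = 1.86e-06, edgeR). The number higher, 4, was 7 with library totals alone and 2 without DMSO replicate 3. By the replicate 1 values 12 of the 26 had a log2 ratio of −0.5 or less and 0 had one of 0.5 or more, beside 9.93% and 20.9% of the genes with at least 1 FPKM in either library.

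S phase genes, which supply nucleotides and replicate DNA while histone mRNA is made, were mostly lower in both preparations. Of 39, all tested, 31 were lower and 0 higher in edgeR, beside 32.3% and 31.5% of all genes tested, and 0 were higher at an unadjusted p under 0.05 or with DESeq2. The list had a median log2 fold change of −0.57, while 8 passed in neither direction. In the replicate 1 pair 26 of the 39 had a log2 ratio of −0.5 or less, where the share over genes with at least 1 FPKM in either library was 9.93%, and the median log2 ratio was −0.68. The list summed to 4228 and 4179 CPM with DMSO, 2398 and 3066 CPM with the inhibitor, and 2185 and 1323 FPKM in the pair. *Pcna*, the sliding clamp, had 369 and 351 CPM, then 154 and 196 CPM (log2 fold change −1.04 ± 0.09, adjusted p = 5.10e-06, edgeR). *Rrm2*, a subunit of ribonucleotide reductase, and *Mcm2*, of the replicative helicase and also among the chaperones, had log2 fold changes of −1.30 ± 0.13 and −1.07 ± 0.11. *Ccne1* and *Ccna2*, the cyclins of S phase entry and progress, had −1.45 ± 0.17 and −1.03 ± 0.12, and *Tk1*, thymidine kinase, −0.97 ± 0.11. In replicates 2 and 3 the sum of these genes was lower and that of the histone members higher with the inhibitor, and in replicate 1 both sums were lower. The difference between the lists was not tested.

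*Mapk13*, the gene of the inhibited kinase, is not a check of the treatment, since the compound acts on the protein. It had 79 and 74 counts with DMSO and 21 and 51 with the inhibitor (log2 fold change −1.47 ± 0.36, adjusted p = 0.00490, edgeR), without overlap. The log2 fold change was −0.94 without MAPK13-inhibitors replicate 2 and −2.29 without MAPK13-inhibitors replicate 3. The gene stood at 0.191 and 3.28 FPKM in the replicate 1 pair. Of the list of RNAs without a poly(A) tail and loci that overlap ribosomal RNA, 1 of 21 names was found in the table, *Vaultrc5*, with 4 and 6 counts with DMSO and 10 and 5 with the inhibitor, so no comparison was made with it.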

How the data were processed

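RNA of splenic CD4+ T cells was sequenced in 3 libraries per group. For replicates 2 and 3 the authors deposited whole-number counts per gene; their processing notes name fastp 0.21.0, HISAT2 2.1.0, StringTie 2.1.5, DESeq2 1.30.1 and the build mm10. The replicate 1 values, deposited as normalized numbers, were taken as FPKM from their range; the notes name FastQC, HISAT2, GRCm38 and mm10.

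The count test was run in edgeR 4.0.16 under R 4.3.3 (filterByExpr with minimum count 10 and minimum total 15, TMM factors of 0.960, 0.955, 1.05 and 1.04, quasi-likelihood test, Benjamini-Hochberg adjustment), without covariates, and was tested on simulated data. FPKM entered no fit. Alternatives were RLE, upper-quartile and total scaling, other filters, a replicate block, DESeq2 1.42.0, other thresholds and each library left out. Members and gene lists were chosen with earlier results of these data known. Named were, per family, the 2 members with the highest mean CPM, the 2 largest rises and falls, members not called where a family had 3 or fewer, and those nearest the count limit; per list, the 3 smallest p-values and preset genes. Other members were named after their values were seen, as were the sequences shown. Older and newer gene names were joined through RefSeq synonyms and GENCODE M21 coordinates.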

Additional observations from a re-analysis of the deposited data

How the results depend on the processing

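The number of members called higher, 17, was between 13 and 21 under RLE, upper-quartile and total scaling, other filters on low counts and an adjusted p under 0.01, and 18 with the replicate block. It was 9 with DESeq2, which gave an adjusted p to all 60 members, and 11 when an absolute log2 fold change over 1 was also required. Leaving out each library in turn, with the lone library of a group assumed to vary like the other group, gave 12 to 19. The number called lower, 2, was 1 among the 26 members with a summed count of at least 100. The median log2 fold change, 0.54, was 0.62 with upper-quartile factors, 0.67 with library totals alone, and 0.44 to 0.60 over those 4 fits. The median over all genes tested moved from 0.01 to 0.14 with library totals, 0.16 without a filter and 0.17 with DESeq2. The median log2 ratio of the replicate 1 pair, −0.86, was −1.61 with a pseudocount of 0.1 and −0.28 for the 13 members with at least 1 FPKM in both libraries. The log2 fold change of *H4c1* turned to −0.99 without MAPK13-inhibitors replicate 2 and was 0.83 without MAPK13-inhibitors replicate 3. That of *H2ac7* turned to −0.26 without DMSO replicate 2 and was 0.66 without DMSO replicate 3. Over 62 genes, those named by rule and the members called in any fit or set beside a partner or close copy, 685 of 732 log2 fold changes under alternatives kept their direction and side of the threshold, 30 lost and 15 gained a call, and 2 turned. The causes were not tested.

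Same-numbered libraries shared only a number: their deviations had a correlation of −0.01 across genes, and with the replicate number as a block the median was 0.53, with *H2ac6* added to the members called and *H3f3a* to the list genes named. A filter of a mean count of at least 10, chosen after seeing the data, gave 17 higher and 2 lower. The median was 20 counts per member and library, and the smallest difference that this depth can show was not measured.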
